A study of Mus musculus with 13 samples.

Results

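Gene expression was compared between CD31-sorted cells of ovarian tumors that had become resistant to the B20 anti-VEGF antibody and those of control tumors. The comparison used 4 resistant and 5 control arrays, 9 of the 13 arrays of the series, each labeled as a separate biological replicate. Of 18193 genes with a probe set that named a single gene, each represented by its brightest probe set, 14987 were above the detection floor on at least 4 of the 9 arrays and were tested. The tumors grew from luciferase-labeled SKOV3ip1, a human ovarian cancer line, implanted in female athymic nude mice, which lack mature T cells and keep their myeloid and B cells. Per the methods of the study, B20, an antibody that binds VEGF-A, and control IgG were given into the peritoneum, and tumors were called sensitive or resistant from the bioluminescence signal under treatment. The cell suspension was cleared of platelets and red cells on Percoll and sorted on CD31, a surface protein of endothelial cells that some leukocytes and platelets also carry. The control group received no B20 and the resistant group received it until its tumors progressed. The labels say only control, and the study mentions both collection before treatment and a control IgG group. Which of these the control arrays came from is not settled. The antibody, the length of treatment, the age of the tumors and the resistant state cannot be told apart in this comparison. No label names the animal behind an array, and each p-value is therefore a measure of the spread among these arrays only.

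VEGF-A signals through receptors on endothelial cells and is required for new vessel growth. Where oxygen falls, prolyl hydroxylases of the Egln family stop marking the alpha subunits of the hypoxia-inducible factors (HIF) for destruction, and HIF then turns on glycolytic enzymes, VEGF-A and the Egln genes themselves. Tumors in the peritoneal cavity also recruit myeloid cells: large peritoneal macrophages, marked by the transcription factor GATA6, and neutrophils, which carry the S100a8 and S100a9 proteins. In bulk samples such as these, fewer cells of a type and less RNA per cell cannot be told apart.

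The endothelial label was first set against 30 endothelial identity genes. Pecam1, which encodes CD31 itself, read 2.39, 2.42, 2.61, 6.56 and 6.56 on control arrays 1 to 5 and 3.41, 2.91, 3.27 and 2.74 on the resistant arrays, on a log2 scale whose floor was 2.02. Cdh5, the VE-cadherin of endothelial junctions, was 7.96 and 8.06 on control arrays 4 and 5, but stayed between 2.61 and 3.03 on the other controls and between 2.87 and 4.28 in resistant samples. The median of the endothelial list was 3.18, 3.19, 3.16, 6.64 and 6.67 in controls and 3.49 to 4.07 in resistant samples. These genes were low on 7 of the 9 arrays, and the sorted cells are called CD31-sorted rather than endothelial here. The median of 27 core macrophage and monocyte genes was between 7.99 and 9.12 on the control arrays and between 7.84 and 9.37 on the resistant arrays. Replicate arrays correlated at 0.902 to 0.984 among controls and 0.892 to 0.953 among resistant samples, and arrays of the other group at 0.901 to 0.966. The mean difference between the 3' and 5' probe sets of Actb and Gapdh, a measure of RNA degradation, was 2.15 to 2.82 on the control arrays, 2.40 on resistant array 1, and 3.56, 3.32 and 4.11 on resistant arrays 2 to 4.

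**Figure D1:**
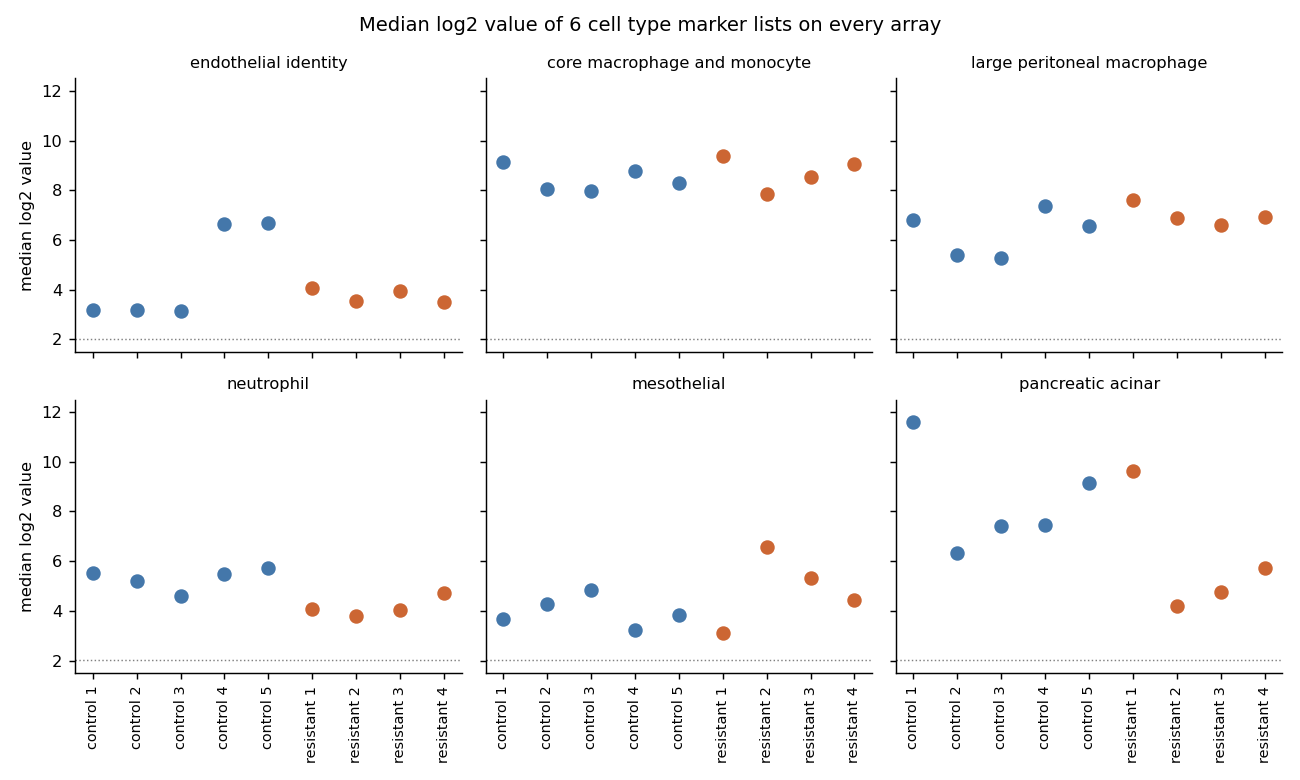
Median log2 value of 6 cell type marker lists on each of the 5 control (blue) and 4 resistant (orange) arrays, with the floor as a dotted line. Endothelial genes are high on control arrays 4 and 5 alone, neutrophil medians lie between 3.79 and 4.70 on the resistant arrays and between 4.61 and 5.70 on the controls, and mesothelial medians are highest on resistant arrays 2 and 3.

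No gene passed a Benjamini-Hochberg adjusted p of 0.05 with limma (0 of 14987, 0%), and the lowest adjusted p was 0.283. At an unadjusted p under 0.05, 469 genes (3.13%) were higher and 542 (3.62%) were lower in resistant samples, against 749.35 expected in all without any difference. The arrays of the groups did not overlap for 202 genes (1.35%) that were higher and 214 (1.43%) that were lower in resistant samples. Those genes differed by at least 1 on the log2 scale in 25 and 37 cases. The median difference over all genes was 0.03, and 8138 genes were positive and 6849 negative. Differences below are resistant minus control on the log2 scale with the standard error of the fit, and none of them passed the adjusted test.

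**Figure D2:**
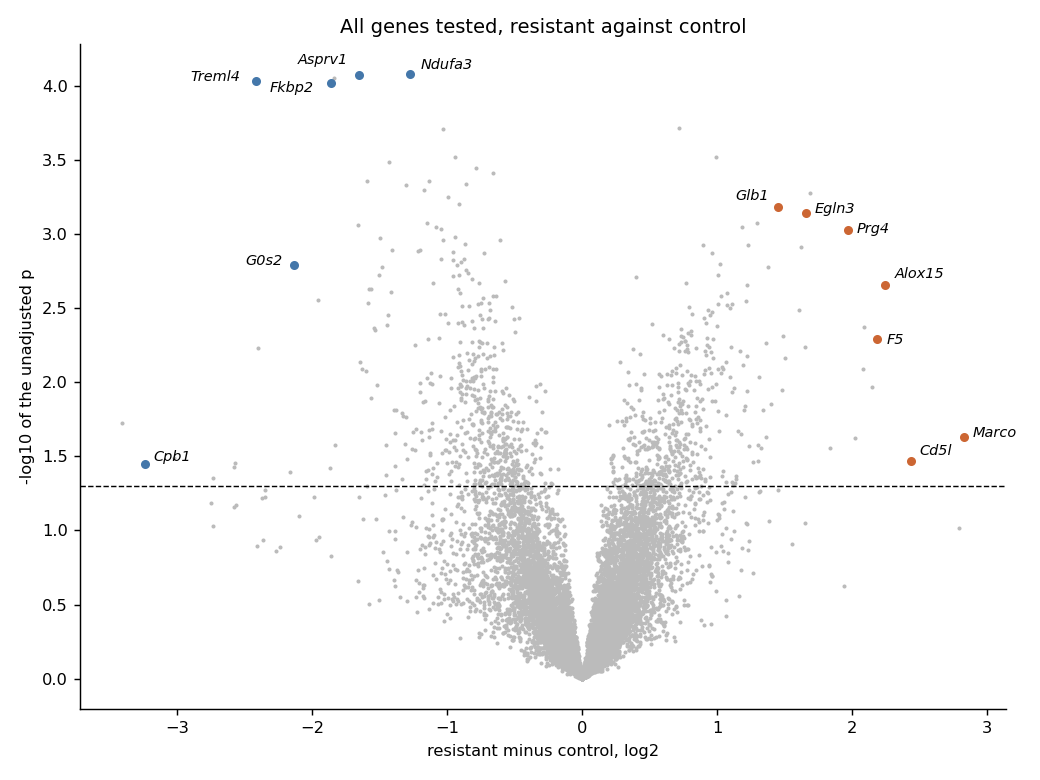
Each grey point is 1 of the 14987 genes, with its difference (resistant minus control, log2) on the x axis and the -log10 of its unadjusted p on the y axis. Named genes are orange where higher and blue where lower in resistant samples. The dashed line is an unadjusted p of 0.05, and no gene passed after adjustment.

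A subset of hypoxia genes was higher on the resistant arrays. A list of hypoxia and glycolysis genes had 34 tested members. At an unadjusted p under 0.05, 8 were higher and 0 lower, against 3.13% and 3.62% of all genes. The groups did not overlap for 4, all higher, against 1.35% of all genes. The median of the list was 0.13, beside 0.03 over all genes, and its members ran from -1.10 to 1.66. The lowest were Pfkfb3, which makes the activator of phosphofructokinase, at -1.10 ± 0.50, and Pfkp, a phosphofructokinase, at -0.74 ± 0.35, both with overlapping groups (adjusted p = 0.743 and 0.746). The promoters of 3 of these genes are shown because HIF binds the core ACGTG. Other forms of the HIF core were not marked or counted. The windows run from 250 bases before to 50 bases after the RefSeq start site, on the strand of the gene, in build GRCm38.p6, and capitals mark ACGTG on that strand or its reverse complement CACGT.
Egln3, chr12:54203825-54204124, minus strand: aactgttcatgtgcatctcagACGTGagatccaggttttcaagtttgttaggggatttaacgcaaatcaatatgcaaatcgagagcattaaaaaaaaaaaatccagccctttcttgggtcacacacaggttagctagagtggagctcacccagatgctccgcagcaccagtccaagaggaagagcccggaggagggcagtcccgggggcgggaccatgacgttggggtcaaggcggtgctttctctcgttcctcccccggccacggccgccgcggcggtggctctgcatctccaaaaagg
Hk2, chr6:82774405-82774704, minus strand: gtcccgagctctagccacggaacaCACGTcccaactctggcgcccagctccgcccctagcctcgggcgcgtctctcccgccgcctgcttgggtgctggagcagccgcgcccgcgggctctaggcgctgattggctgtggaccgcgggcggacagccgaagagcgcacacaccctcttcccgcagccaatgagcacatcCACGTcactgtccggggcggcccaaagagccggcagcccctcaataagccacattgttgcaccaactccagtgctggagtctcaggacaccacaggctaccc
Ero1a, chr14:45318523-45318822, minus strand: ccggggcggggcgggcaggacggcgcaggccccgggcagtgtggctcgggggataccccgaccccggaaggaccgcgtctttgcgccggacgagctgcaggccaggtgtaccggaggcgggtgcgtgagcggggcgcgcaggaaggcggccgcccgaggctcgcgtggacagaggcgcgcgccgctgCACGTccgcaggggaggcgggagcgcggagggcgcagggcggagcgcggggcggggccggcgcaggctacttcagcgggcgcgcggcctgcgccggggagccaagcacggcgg
The marked sequence began 229 bases before the start in Egln3, 226 and 52 bases before it in Hk2 and 63 bases before it in Ero1a. It was present in 6447 of 32851 windows of this length (19.6%). Counted by gene, at least 1 window held it for 5886 of 27025 genes (21.8%) and for 26 of the 36 list genes with a promoter in the table. Such a match is a description of the letters only, and the list was drawn from genes known to respond to hypoxia.

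Egln3, the oxygen-sensing prolyl hydroxylase that is itself a HIF target, read 5.58, 6.71, 6.53, 5.22 and 5.87 on the control arrays and 8.23, 7.82, 6.98 and 7.53 on the resistant arrays. Every resistant array was above every control array, and the difference was 1.66 ± 0.36 (3.15-fold, adjusted p = 0.469). The other Egln3 probe set differed by 0.43, at group means of 3.54 and 3.97. Hk2, the hexokinase that traps glucose in the cell, read 7.87, 8.07, 6.93, 6.27 and 6.51 on the control arrays and 8.25, 9.12, 8.46 and 8.15 on the resistant arrays. The groups again did not overlap, with 0.08 between the highest control and the lowest resistant array, and the difference was 1.36 ± 0.39 (2.57-fold, adjusted p = 0.553). Hk1, the hexokinase most cells use, differed by 0.70 ± 0.22 without overlap (adjusted p = 0.586). Ero1a, which reoxidises protein disulfide isomerase in the endoplasmic reticulum, ranged from 8.03 to 9.43 in controls and read 9.93, 10.04, 9.13 and 9.98 on the resistant arrays. Resistant array 3 fell within the control range, and the difference was 0.95 ± 0.30 (adjusted p = 0.586). The 2 other Ero1a probe sets differed by 1.20 and 1.55. Of 10 HIF factors and oxygen sensors, Egln3 alone was below an unadjusted p of 0.05, 8 were positive, and the median was 0.16. Vegfa, the ligand that B20 binds, read 7.50, 6.63, 6.52, 5.84 and 6.52 on the control arrays and 7.27, 7.50, 6.78 and 7.42 on the resistant arrays. Control array 1 lay level with the highest resistant array, and the difference of 0.64 ± 0.31 gave an exact permutation p of 0.0794 (n = 5 and 4; two-sided, smallest possible p = 0.00794). Without resistant array 1 the list median was -0.01. At an unadjusted p under 0.05, 7 members were then higher and 2 lower, where 775 and 794 of all 14987 genes were. With the 3' to 5' difference as a covariate the list median was 0.59, with 11 higher and 1 lower. Of all genes, 462 were higher and 232 lower in that fit.

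**Figure D3:**
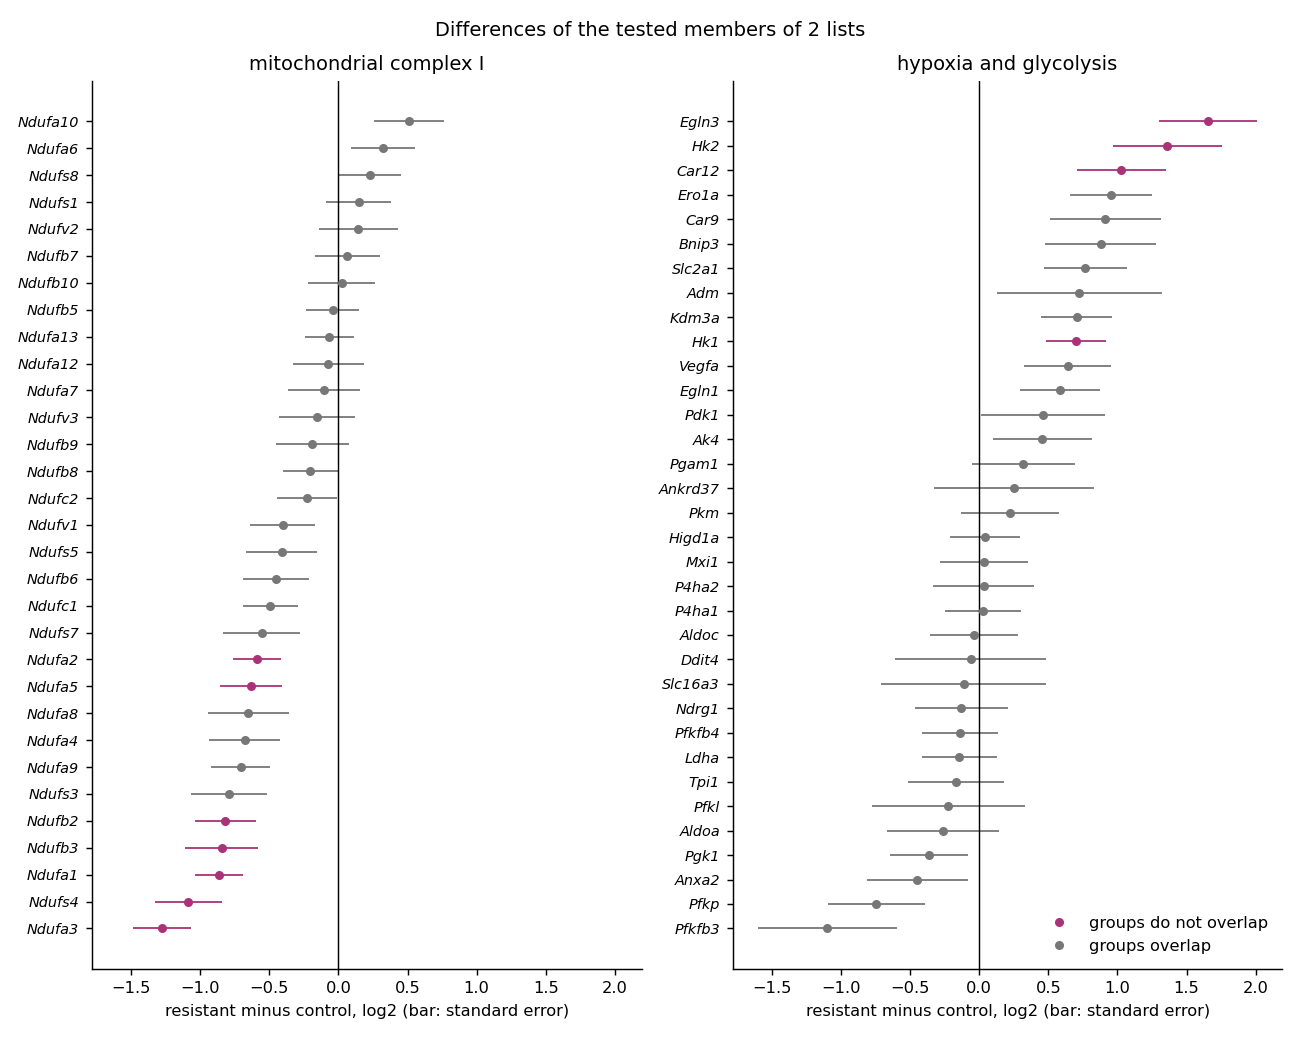
Difference (resistant minus control, log2; bars are standard errors) of each tested member of the mitochondrial complex I list (31 genes, left) and of the hypoxia and glycolysis list (34 genes, right). Members whose groups do not overlap are purple: 7 complex I genes, each lower in resistant samples, and 4 hypoxia genes, each higher.

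Genes of large peritoneal macrophages were mostly higher in resistant samples. Of 20 tested members, 16 were positive with a median of 0.62, beside 0.03 over all genes. At an unadjusted p under 0.05, 7 were higher and 1 lower, against 3.13% and 3.62% of all genes. The median level of the list was 6.82, 5.39, 5.26, 7.35 and 6.57 on the control arrays and 7.62, 6.89, 6.58 and 6.92 on the resistant arrays. The list as a whole overlapped, with control array 4 above resistant arrays 2 to 4 and control arrays 2 and 3 lowest. Prg4, the secreted lubricant proteoglycan, read 8.70, 6.42, 6.22, 7.47 and 7.64 on the control arrays and 9.34, 9.39, 9.24 and 9.06 on the resistant arrays. The resistant arrays lay within 0.33 of one another and above every control, and the difference was 1.97 ± 0.44 (3.91-fold, adjusted p = 0.469). F5, coagulation factor V, read 5.78, 3.26, 2.34, 5.16 and 5.07 on the control arrays and 6.60, 6.60, 6.06 and 6.77 on the resistant arrays. The groups did not overlap and the difference was 2.18 ± 0.63 (4.55-fold, adjusted p = 0.553). Alox15, the lipoxygenase of resident peritoneal macrophages, read 7.11, 3.81, 4.21, 4.55 and 5.44 on the control arrays and 7.12, 7.58, 7.29 and 7.07 on the resistant arrays. Control array 1 reached the resistant range and the other 4 controls lay far under it, and the difference was 2.24 ± 0.56 (4.74-fold, adjusted p = 0.502). Adgre1, which encodes an adhesion receptor that marks mature mouse macrophages, read 9.16, 7.84, 8.06, 8.79 and 8.35 on the control arrays and 9.37, 9.41, 9.15 and 9.52 on the resistant arrays (difference 0.92 ± 0.27, adjusted p = 0.553). Gata6 itself read 4.17 to 4.98 in controls and 5.06, 5.89, 6.0 and 4.68 in resistant samples (0.75 ± 0.31, adjusted p = 0.73). It was highest on resistant arrays 2 and 3, where mesothelial markers were also highest, and Wt1 is a member of both lists. The part of mesothelial RNA in these values was not tested. The lower member was Cd9, a tetraspanin, at -1.07 ± 0.47, and Timd4, a receptor of resident macrophages for phosphatidylserine, differed by -0.26 ± 0.53, both with overlap (adjusted p = 0.736 and 0.959). Icam2 of the same list differed by 0.28 ± 0.36, also with overlap.

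Cd5l and Marco, macrophage proteins that bind lipids or microbes, spread widely among the controls. Cd5l, the secreted macrophage protein the study centers on, read 7.97, 3.90, 3.34, 8.71 and 6.61 on the control arrays and 8.77, 9.11, 8.37 and 7.90 on the resistant arrays. The resistant arrays were close together, while the controls spanned 5.37 and control arrays 1 and 4 reached the resistant range. The difference was 2.43 ± 1.00 (5.40-fold), with an adjusted p of 0.709 over all genes by limma and an exact permutation p of 0.103 (n = 5 and 4). Marco, the class A scavenger receptor, read 8.49, 4.64, 2.72, 8.38 and 7.44 on the control arrays and 9.95, 9.20, 9.20 and 8.30 on the resistant arrays. Control arrays 2 and 3 were lowest here as for Cd5l, and the difference was 2.83 ± 1.07 (7.10-fold, adjusted p = 0.673). Colec12, a collectin scavenger receptor, was higher on every resistant array (6.58 to 7.70 against 5.43 to 6.33; difference 1.11 ± 0.29, adjusted p = 0.521). Scarb2, a lysosomal membrane receptor, differed by 0.84 ± 0.25 with overlap (adjusted p = 0.553). Those 4 genes, all higher, were the members of 19 scavenger receptors at an unadjusted p under 0.05, against 3.13% of all genes. The median of that list was -0.05. Over the 27 core macrophage genes the median was 0.09, with Marco and Adgre1 the 2 genes at an unadjusted p under 0.05, both higher. Csf1r and Cd68 of that list differed by 0.35 ± 0.23 and -0.08 ± 0.36, with overlapping groups. Leaving out control arrays 4 and 5 gave a median of 0.56 for the peritoneal macrophage list, and array quality weights gave 0.28. In the fit without those 2 arrays, 7 members were higher and 1 lower at an unadjusted p under 0.05. Of all 14987 genes, 329 were higher and 419 lower there.

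**Figure D4:**
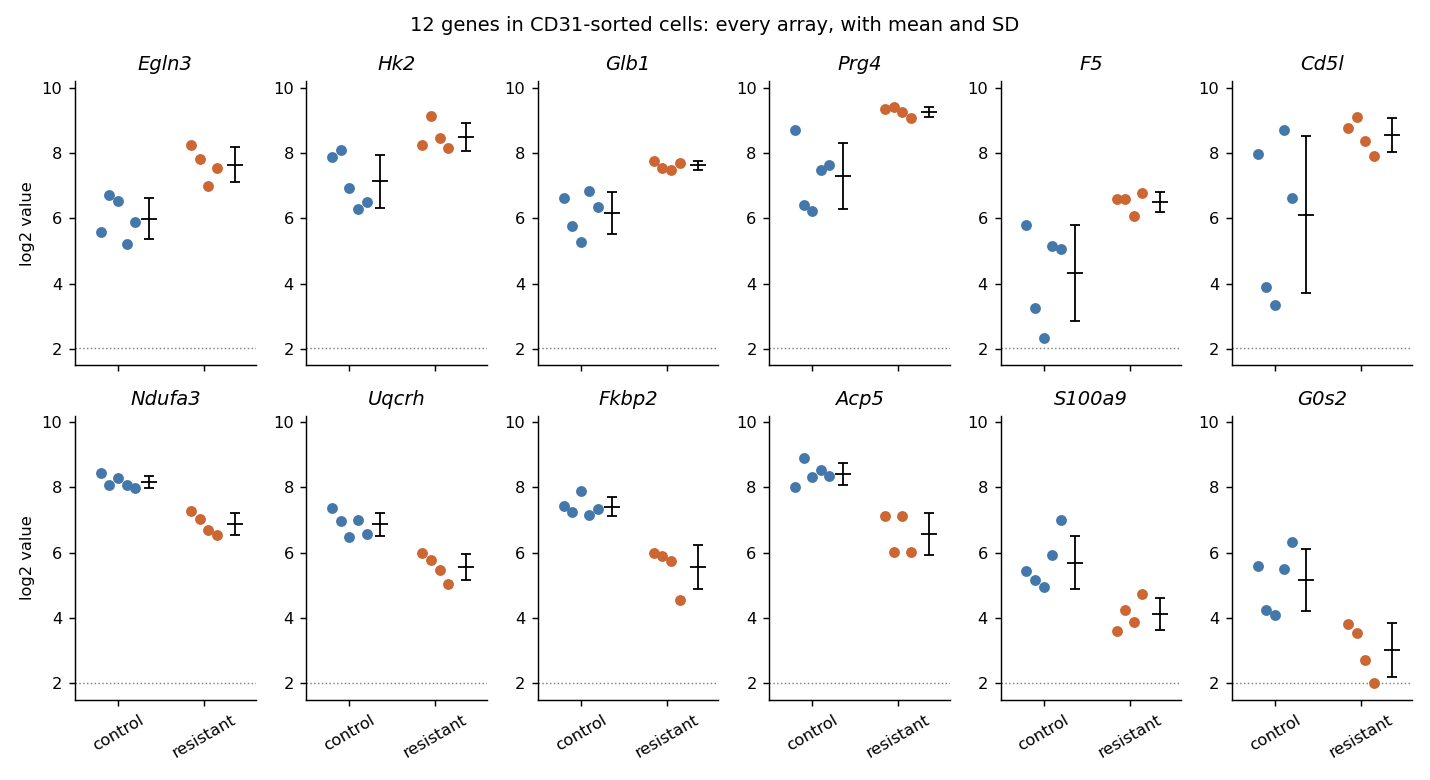
Log2 values of 12 genes on the 5 control (blue) and 4 resistant (orange) arrays, with the mean and SD of each group in black and the floor as a dotted line. The upper row holds 6 genes with higher means in resistant samples, among which Cd5l alone overlaps between groups, and the lower row holds 6 with lower means and no overlap.

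Neutrophil genes were mostly lower in resistant samples. Of 20 tested members, 14 were negative with a median of -0.60, beside 0.03 over all genes. At an unadjusted p under 0.05, 8 were lower and 1 higher, against 3.62% and 3.13% of all genes, and the groups did not overlap for 3, all lower, against 1.43%. The median of the list was 5.52, 5.19, 4.61, 5.48 and 5.70 on the control arrays and 4.08, 3.79, 4.04 and 4.70 on the resistant arrays. S100a9, a subunit of calprotectin, read 5.44, 5.18, 4.95, 5.92 and 7.02 on the control arrays and 3.60, 4.26, 3.87 and 4.74 on the resistant arrays. The groups did not overlap, and the difference was -1.58 ± 0.42 (adjusted p = 0.521). S100a8, the partner subunit, read 7.58, 9.12, 8.81, 8.29 and 8.84 on the control arrays and 6.42, 6.75, 6.51 and 8.10 on the resistant arrays. Resistant array 4 lay above control array 1, and the difference was -1.58 ± 0.40 (adjusted p = 0.511). G0s2, an inhibitor of the main triglyceride lipase, read 5.60, 4.26, 4.10, 5.50 and 6.34 on the control arrays and 3.83, 3.53, 2.72 and 2.02 on the resistant arrays, the last of which is the floor. Without overlap, its difference was -2.13 ± 0.51 (4.39-fold lower, adjusted p = 0.48), which the floor understates. Mmp8, the neutrophil collagenase, stayed within 1.1 of the floor on every array and differed by -0.66 ± 0.13 (adjusted p = 0.435). The higher member was Prtn3, proteinase 3 of neutrophil granules, at 1.36 ± 0.52 with overlap (adjusted p = 0.673). The other positive members were Padi4 at 0.69, Csf3r at 0.21, Cxcr2 at 0.11, Elane at 0.06 and Mpo at 0.00, all with overlap. Without resistant arrays 2 and 3 the list median was -0.23. At an unadjusted p under 0.05, 6 members were then lower and 2 higher, where 480 and 455 of all 14987 genes were.

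Inflammatory and antigen-presentation genes were mixed. Of 30 inflammatory cytokines and chemokines, 2 were higher and 5 lower at an unadjusted p under 0.05, against 3.13% and 3.62% of all genes. The median of that list was -0.27. Ccl7, a monocyte chemoattractant, read 7.75, 6.14, 6.57, 7.82 and 6.63 on the control arrays and 6.01, 5.35, 5.84 and 4.96 on the resistant arrays. The gap between the groups was 0.12, and the difference was -1.44 ± 0.39 (2.72-fold lower, adjusted p = 0.529). Ccl3 differed by -1.06 ± 0.36 and Ccl2 by -0.68 ± 0.24, both with overlapping groups (adjusted p = 0.611 and 0.628). Osm, a cytokine of the interleukin-6 family made by myeloid cells, ran the other way at 1.34 ± 0.47 with overlap (adjusted p = 0.623). H2-Eb1, an MHC class II chain, differed by -1.60 ± 0.50 with overlap (adjusted p = 0.586) and was the only one of 14 dendritic cell and class II genes at an unadjusted p under 0.05. Of 25 interferon response genes, 19 were negative with a median of -0.34. At an unadjusted p under 0.05, 1 was higher and 3 lower, against 3.13% and 3.62% of all genes. Bst2, which tethers enveloped viruses to the cell surface, read 6.09, 5.60, 5.52, 5.38 and 6.01 on the control arrays and 4.65, 4.14, 5.28 and 3.02 on the resistant arrays. Resistant array 3 came within 0.11 of the lowest control, and the difference was -1.45 ± 0.40 (adjusted p = 0.535). Oas1a, an oligoadenylate synthetase, differed by -0.89 ± 0.28 without overlap (adjusted p = 0.589), Irf1 by -0.55 ± 0.24 with overlap, and Cxcl10, an interferon-induced chemokine, by 0.75 ± 0.30. The interferon median was 0.03 without control arrays 4 and 5.

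Genes of complex I of the respiratory chain were mostly lower in resistant samples. Complex I passes electrons from NADH to ubiquinone and pumps protons, and of its 31 tested subunits and accessory subunits 24 were negative with a median of -0.40, beside 0.03 over all genes. At an unadjusted p under 0.05, 12 were lower and 0 higher, against 3.62% and 3.13% of all genes, and the groups did not overlap for 7, all lower, against 1.43% of all genes. The list as a whole overlapped, with a median level of 7.27, 7.28, 7.31, 6.98 and 6.82 in controls 1 to 5 and of 6.82, 6.75, 6.63 and 7.15 in resistant samples 1 to 4. Resistant array 4 thus lay above control arrays 4 and 5. Ndufa3, an accessory subunit, had the smallest p of all lower genes and read 8.44, 8.07, 8.27, 8.06 and 7.99 on the control arrays and 7.29, 7.03, 6.71 and 6.54 on the resistant arrays. The lowest control lay 0.70 above the highest resistant array, and the difference was -1.28 ± 0.21 (2.42-fold lower, adjusted p = 0.283). Ndufa1 read 10.73, 10.36, 10.48, 10.35 and 10.17 on the control arrays and 9.64, 9.76, 9.50 and 9.32 on the resistant arrays, a difference of -0.86 ± 0.17 without overlap (adjusted p = 0.435). Ndufs4, a subunit needed for assembly of the complex, read between 6.11 and 6.65 on the control arrays and between 4.90 and 5.88 on the resistant arrays (-1.08 ± 0.24, adjusted p = 0.469). Of its 3 other probe sets 2 had the opposite sign, at low group means of 2.41 to 2.91. Ndufb2 differed by -0.82 ± 0.22 without overlap (adjusted p = 0.533), and its 2 other probe sets differed by -0.22 and -0.16. Uqcrh, the hinge subunit of complex III, read 7.37, 6.96, 6.47, 6.99 and 6.57 on the control arrays and 5.98, 5.78, 5.46 and 5.04 on the resistant arrays. The groups did not overlap, and the difference was -1.30 ± 0.27 (2.47-fold lower, adjusted p = 0.435), but its other probe set differed by -0.05 and the mean of both by -0.68. The 3' to 5' difference was higher on resistant arrays 2 to 4 than on any control. With it as a covariate the complex I median was -0.37. At an unadjusted p under 0.05, 6 members were then lower and 0 higher, where 232 and 462 of all 14987 genes were. Without control arrays 4 and 5 the median was -0.44, with 12 members lower at that threshold, where 419 of all genes were lower.

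Genes of protein folding in the endoplasmic reticulum split in both directions. Of 25 tested members, 13 were positive and 12 negative with a median of 0.09, 2 were higher and 5 lower at an unadjusted p under 0.05, against 3.13% and 3.62% of all genes. The groups did not overlap for those 5, against 1.43% of all genes for lower ones. Fkbp2, a prolyl isomerase of the endoplasmic reticulum, read 7.42, 7.26, 7.89, 7.15 and 7.34 on the control arrays and 6.0, 5.91, 5.73 and 4.55 on the resistant arrays. The groups lay 1.15 apart, and the difference was -1.86 ± 0.31 (3.64-fold lower, adjusted p = 0.283). Pdia6, a disulfide isomerase, read between 8.79 and 8.90 on the control arrays and 8.47, 8.39, 8.48 and 7.83 on the resistant arrays (-0.57 ± 0.19, adjusted p = 0.589). Manf, a secreted factor of the stressed endoplasmic reticulum, differed by -0.65 ± 0.21 without overlap (adjusted p = 0.59). Txndc12, a thioredoxin-like protein of the same compartment that is not in the list, ran the other way, with values of 4.08 to 4.44 in controls and of 5.41, 5.75, 4.73 and 6.61 in resistant samples (1.38 ± 0.33, adjusted p = 0.48).

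Myeloid enzymes and receptors were among the other leading lower genes. Acp5, the tartrate-resistant acid phosphatase of osteoclasts and macrophages, read 8.0, 8.90, 8.31, 8.53 and 8.34 on the control arrays and 7.13, 6.03, 7.13 and 6.01 on the resistant arrays. The groups did not overlap, and the difference was -1.84 ± 0.31 (3.59-fold lower, adjusted p = 0.283). Treml4, a TREM-like receptor of myeloid cells, read 5.45, 7.12, 6.71, 5.82 and 6.20 on the control arrays and 3.76, 4.35, 4.35 and 2.91 on the resistant arrays. Its difference of -2.42 ± 0.40 (5.35-fold lower, adjusted p = 0.283) was the largest of the 15 leading lower genes. Asprv1, an aspartic protease known from skin, read 5.19 to 6.11 on the control arrays and 3.75 to 4.53 on the resistant arrays (-1.66 ± 0.27, adjusted p = 0.283). Ms4a4c, a membrane protein of the MS4A family, differed by -1.43 ± 0.28 and Cubn, the endocytic receptor cubilin, by -1.59 ± 0.32 (adjusted p = 0.435 for both), with Cubn at the floor on resistant array 1. Neto2, an accessory protein of glutamate receptors, was low on all arrays and at the floor on 2 resistant arrays (-1.14 ± 0.23). Its 2 other probe sets differed by 0.00 and 0.07, at group means of 2.36 and of 2.02 to 2.09, close to the floor. Upp1, which splits uridine, read 6.47 to 7.65 on the control arrays and 4.35 to 5.92 on the resistant arrays (-1.66 ± 0.37), and Impa1, an inositol phosphatase, differed by -1.17 ± 0.24. Splicing and RNA-binding proteins made up the rest: Prpf31 of the spliceosome at -1.03 ± 0.19, Lsm14b at -1.15 ± 0.25 and Snrpd3, a core Sm protein, at -1.04 ± 0.23, each without overlap (adjusted p from 0.414 to 0.469). The 2 other Snrpd3 probe sets differed by -0.13, at group means of 5.56 and 5.43, and by 0.17, at 4.34 and 4.51.

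Among leading higher genes, Glb1, the lysosomal beta-galactosidase, had the smallest p and read 6.62, 5.75, 5.29, 6.82 and 6.35 on the control arrays and 7.75, 7.55, 7.48 and 7.69 on the resistant arrays. The resistant arrays lay within 0.28 of one another and above all controls, and the difference was 1.45 ± 0.31 (2.74-fold, adjusted p = 0.467). Of 26 lysosomal genes it was the only one higher at an unadjusted p under 0.05, with 1 lower, against 3.13% and 3.62% of all genes. The list median was 0.14. Dusp5, a nuclear phosphatase of ERK, read 6.69, 6.18, 6.31, 5.95 and 6.31 on the control arrays and 7.84, 6.76, 7.76 and 7.55 on the resistant arrays. The gap was 0.07 at resistant array 2, and the difference was 1.19 ± 0.26 (adjusted p = 0.469). Ankrd33b, an ankyrin-repeat protein, differed by 1.62 ± 0.37, and Lonrf3, a ring-finger protein, by 1.30 ± 0.29. Arhgap24, which switches off Rac, differed by 1.23 ± 0.28, and Sertad2, a transcriptional coregulator, by 1.22 ± 0.31 (adjusted p from 0.469 to 0.502 for these 4). Pgrmc1, a heme-binding membrane protein, ranged from 6.69 to 6.96 in controls and read 7.04, 8.16, 7.66 and 8.34 on the resistant arrays (1.02 ± 0.26, adjusted p = 0.521). Chromatin and RNA regulators held the remaining places, each just past 1: the histone demethylase Kdm5b at 1.01 ± 0.25, the deadenylase Cnot6l at 1.02 ± 0.24, the SUMO ligase Pias2 at 1.07 ± 0.28 and the remodeler Chd4 at 1.00 ± 0.26. Other probe sets disagreed for all 4: the 2 others of Chd4 differed by -0.07 and -0.03, 2 of 3 for Cnot6l, 1 of 3 for Kdm5b and 1 of 2 for Pias2 had the opposite sign. Those of Kdm5b and Pias2 had group means between 2.09 and 2.29, close to the floor.

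Immediate early genes, which cells switch on within minutes of a stimulus or of handling, were positive in 23 of 25 cases with a median of 0.49. Myc read 6.02, 6.11, 6.49, 5.63 and 5.87 on the control arrays and 6.98, 7.06, 7.20 and 6.70 on the resistant arrays. Without overlap, its difference was 0.96 ± 0.22 (1.94-fold, adjusted p = 0.469). Fosl1 at 0.81 ± 0.32 and Dusp1 at 0.49 ± 0.22 were the other 2 members at an unadjusted p under 0.05, where 3.13% of all genes were higher. Fos read 10.15, 11.46, 11.88, 9.18 and 9.22 on the control arrays and 10.76, 12.39, 11.58 and 11.61 on the resistant arrays (1.21 ± 0.57, adjusted p = 0.746). Control arrays 4 and 5, rich in endothelial genes, were the lowest for Fos, and without them the list median was 0.14 with 16 of 25 positive. Of 28 proliferation genes, 22 were positive with a median of 0.22, and 2 were higher at an unadjusted p under 0.05, against 3.13% of all genes. Among 20 coagulation genes, 4 were higher and 0 lower at that threshold, against 3.13% and 3.62% of all genes, with a median of -0.04. F3, tissue factor, read 6.25, 5.76, 5.66, 7.26 and 7.10 on the control arrays and 8.97, 8.73, 6.92 and 7.58 on the resistant arrays (1.65 ± 0.48, 3.13-fold, adjusted p = 0.553), where resistant array 3 fell among the controls. Thbd, thrombomodulin, differed by 0.71 ± 0.24 without overlap (adjusted p = 0.61), and Serpinc1, antithrombin, by 0.40 ± 0.10 at values between 2.13 and 2.79, close to the floor.

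No member of the VEGF ligand and receptor list (0 of 10) or of the angiopoietin, Notch and Eph list (0 of 24) reached an unadjusted p under 0.05 in either direction, with medians of -0.22 and -0.29. Kdr, the main VEGF receptor, read 4.89, 3.97, 4.79, 8.65 and 9.08 on the control arrays and 5.72, 6.61, 6.11 and 5.69 on the resistant arrays. The resistant arrays lay between the lower 3 and the upper 2 controls, the difference was -0.24 ± 1.00 (exact permutation p = 0.873, n = 5 and 4), and without control arrays 4 and 5 it was 1.48. Flt1, the other receptor of VEGF-A, differed by -1.33 ± 0.69 with the same 2 controls highest. The whole endothelial list was negative in 27 of 30 cases with a median of -0.69, and 0 members were at an unadjusted p under 0.05. Without control arrays 4 and 5, 28 of 30 were positive with a median of 0.55. At an unadjusted p under 0.05, 12 were then higher and 329 of all 14987 genes were higher. Of the 15 basement membrane genes 10 were negative, with a median of -0.43 that was 0.40 without those 2 arrays. Of 27 growth factors and receptors that act beside VEGF, 3 were higher and 1 lower at an unadjusted p under 0.05. The shares over all genes were 3.13% and 3.62%, and the list median was 0.20. Bmp2, a bone morphogenetic protein, read 5.76, 5.24, 4.92, 5.84 and 5.59 on the control arrays and 6.82, 6.47, 6.20 and 6.17 on the resistant arrays (0.94 ± 0.25, adjusted p = 0.529), without overlap. Met, the receptor of hepatocyte growth factor, differed by -1.12 ± 0.40 (adjusted p = 0.634). Its other probe set differed by 0.05 at group means of 2.07 and 2.12, close to the floor.

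The remaining genes the study followed did not separate the groups. Hif1a differed by -0.14 ± 0.34, Epas1 by 0.25 ± 0.73 and Arnt by 0.04 ± 0.26. The other probe sets of Hif1a differed by -0.50, -0.92 and 0.03. Pparg, the lipid-sensing nuclear receptor, read no higher than 2.87 on any array and sat at the floor on 2 control arrays and 1 resistant array (-0.16 ± 0.18). Cd36, a fatty acid and scavenger receptor, read 8.36, 5.91, 4.93, 8.13 and 7.03 on the control arrays and 7.34, 4.68, 7.48 and 6.45 on the resistant arrays (-0.38 ± 0.76). Akt1 and Akt2, the kinases downstream of PI3K, differed by 0.12 ± 0.37 and 0.29 ± 0.23. The exact permutation p of these 7 genes ran from 0.278 to 0.825 (n = 5 and 4, two-sided). Of 22 PPAR and fatty acid genes 0 were at an unadjusted p under 0.05, and their median was -0.01. Among 15 genes of LXR and cholesterol handling 1 was higher and 1 lower at that threshold, against 3.13% and 3.62% of all genes. The higher was Mylip, which degrades the LDL receptor, at 0.71 ± 0.23 without overlap (adjusted p = 0.589).

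Markers of mesothelial and pancreatic cells varied widely between arrays of the same group. All 16 mesothelial genes were positive with a median of 0.77, and 4 were higher at an unadjusted p under 0.05, against 3.13% of all genes. Upk3b, a mesothelial uroplakin, read 5.38, 4.65, 5.01, 3.32 and 4.51 on the control arrays and 3.87, 8.17, 7.71 and 6.60 on the resistant arrays (2.02 ± 0.77, adjusted p = 0.673). Gpm6a differed by 2.08 ± 0.64, Lrrn4 by 1.83 ± 0.72 and Msln, mesothelin, by 1.17 ± 0.83, and resistant array 1 lay within the control range for Gpm6a, Upk3b and Lrrn4 and below it, at 3.42, for Msln. Without resistant arrays 2 and 3 the mesothelial median was -0.06. All 11 genes of pancreatic acinar cells were negative, with a median of -2.35 and 3 lower at an unadjusted p under 0.05, against 3.62% of all genes. Cpb1, a pancreatic carboxypeptidase, read 11.96, 6.49, 8.17, 8.57 and 9.98 on the control arrays and 10.14, 3.86, 3.67 and 5.50 on the resistant arrays (-3.24 ± 1.36, adjusted p = 0.72). Cela3b and Ctrb1, digestive proteases of the same cells, differed by -2.57 ± 1.07 and -2.58 ± 1.09. Control array 1 was highest and resistant array 1 was above 4 of the 5 controls in the median of this list (9.64), so acinar RNA was present in both groups, and its part in the differences above was not tested. The lists of B cells, T cells, NK cells, mast cells, platelets, erythroid cells, fibroblasts, pericytes, hepatocytes and adipocytes had medians between -0.23 and 0.24, with at most 1 member each at an unadjusted p under 0.05. The epithelial, PI3K and AKT, alternative macrophage activation, complement, apoptosis and metalloproteinase lists had medians between -0.08 and 0.10, with at most 2 members each at that threshold. Itgal, the alpha chain of the leukocyte integrin LFA-1, differed by -1.52 ± 0.49 with overlap (adjusted p = 0.589), while the median of 20 integrin subunits was -0.01.

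**Figure D5:**
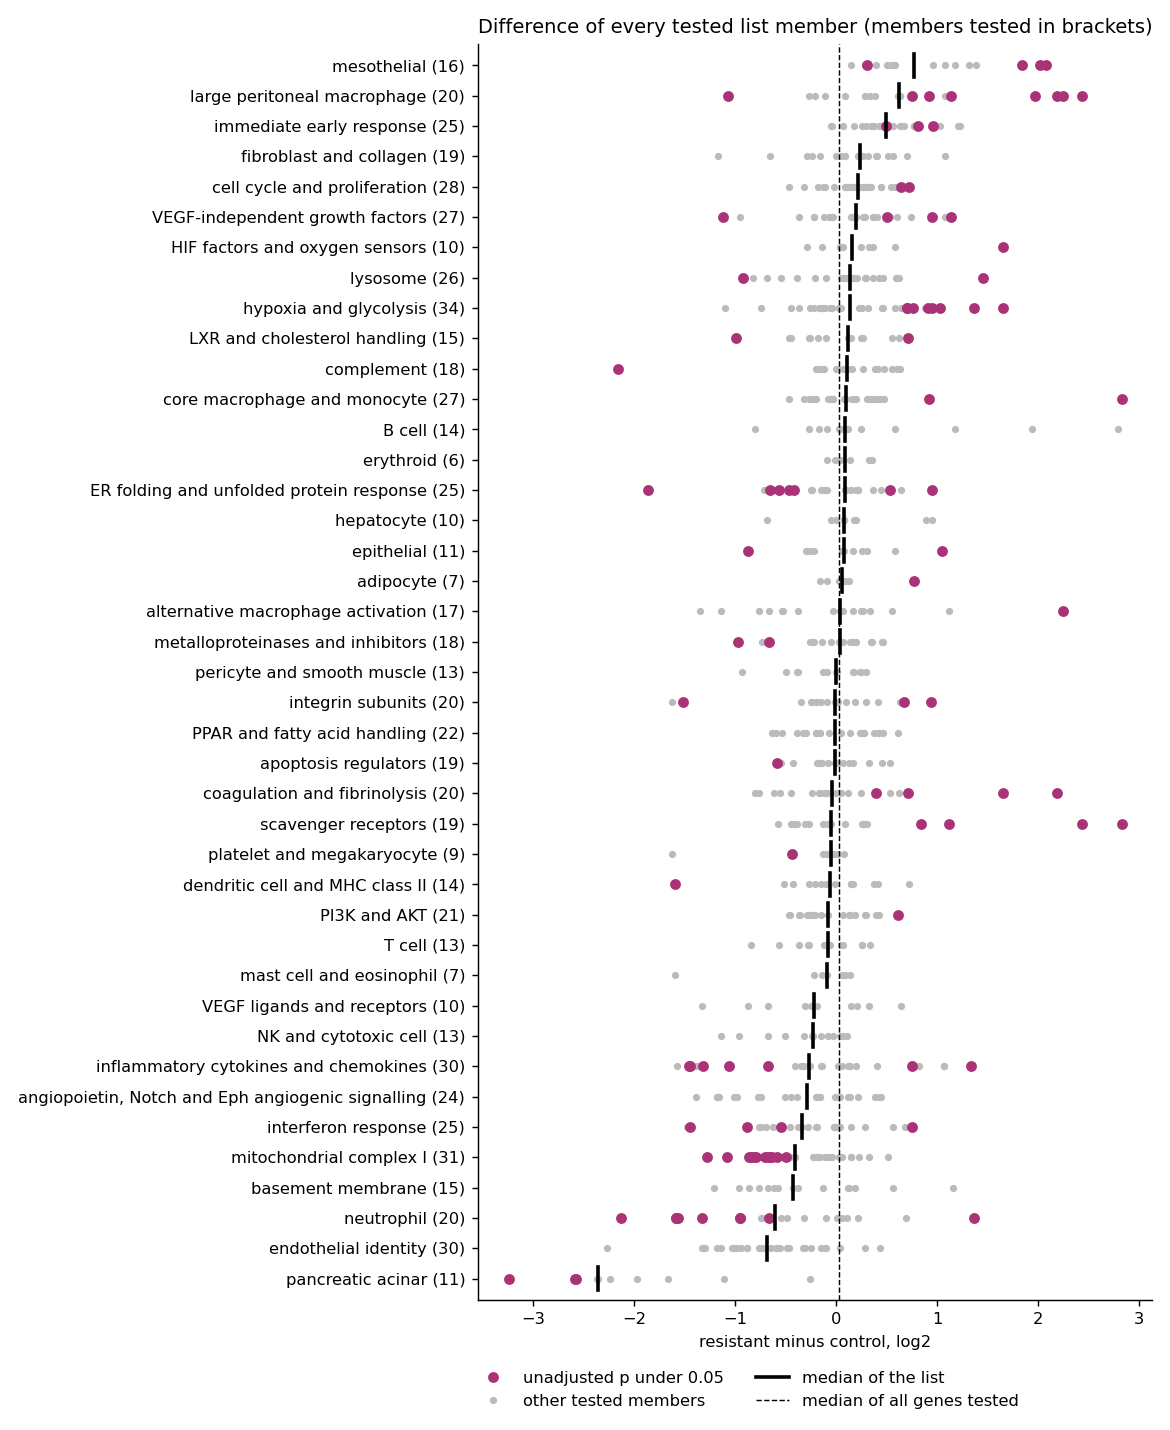
Difference (resistant minus control, log2, x axis) of every tested member of the gene lists, ordered by the list median (thick black line), with members at an unadjusted p under 0.05 in purple and the median of all genes as a dashed line. Mesothelial, large peritoneal macrophage and immediate early lists lie at the top with medians of 0.77, 0.62 and 0.49, and pancreatic acinar, endothelial, neutrophil, basement membrane and complex I lists lie at the bottom.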

How the data were processed

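Labeled RNA of the sorted cells was hybridized to Affymetrix whole-genome mouse arrays. The authors deposited log2 values of 45101 probe sets. The labels name MAS5 with no version, whereas the methods describe Illumina bead chips and BRB-ArrayTools, so the normalization behind the deposited values is not settled and a log base of 2 was taken from their range. Values were quantile normalized over the 13 arrays, and those under the 30th percentile (2.02) were set to it, which understates differences of dim genes. That floor uses no detection call. The methods left out spots with an intensity under 100, and 91.1% of the deposited values lie under that level. Of the probe sets, 34958 had 1 gene symbol, 932 had several and 9211 had none. The probe set with the highest mean stood for each gene. Of 92 genes with values in the report, 43 had other probe sets, and for 12 at least 1 of these had the opposite sign. Padi4, Csf3r, Cxcr2, Elane, Mpo, Csf1r, Cd68 and Icam2 were not part of that check or of the gene counts under the alternatives. Promoters came from RefSeq.

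Groups were tested in R 4.3.3 with limma 3.58.1 (lmFit, eBayes with an intensity trend, 7 residual degrees of freedom, two-sided, Benjamini-Hochberg over 14987 genes, called at 0.05), and genes the study follows also by exact permutation of 126 orders. The steps were tested on simulated data. The number of arrays limits the precision. Named genes were drawn from the 15 with the smallest p in each direction among non-overlapping genes that differed by at least 1. They also came from up to 4 members with the smallest p and the first 3 markers of lists described, and from the study genes. Not every gene that met the rule is given. Prtn3, Padi4, Csf3r, Elane, Mpo, Cd9, Pfkfb3 and Pfkp were named after their values were seen. The 42 lists named 794 genes. Probe sets existed for 733, and 706 passed the filter. Members and lists were chosen with earlier results of these data known, so lists are described by counts and medians only. Whether the replicate numbers pair the samples is not settled, and the main fit treated them as unpaired. Alternatives covered scaling, floor, filter, probe set rule, variance model, a Student t-test without the methods' random variance model, array weights, a replicate block, RNA quality and leaving out arrays.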

Additional observations from a re-analysis of the deposited data

Results flagged for a closer look

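Single arrays stood apart from the others of their group in 13 of 268 groups of values checked. Chance alone gives about 1 in 20, and the count lies near that share, so each case below is a description only. Prpf31 read 5.58 on resistant array 4 against 5.88 to 5.92 on the other resistant arrays, and Pdia6 read 7.83 there against 8.39 to 8.48. Both lay further from the controls than the other resistant arrays did. Cnot6l read 6.99 on control array 1 against 6.02 to 6.17 on the other controls, and 7.64 on resistant array 4 against 7.17 to 7.24. Ero1a read 9.13 on resistant array 3 against 9.93 to 10.04, which places that array alone within the control range. Akt2 read 6.78 on resistant array 3 against 6.22 to 6.24, and without that array its difference was 0.15 in place of 0.29. Mylip read 6.24 on control array 1 against 6.90 to 7.12.

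Medians of marker lists also held lone arrays. The NK and cytotoxic cell median was 4.38 on control array 1 against 2.55 to 2.74 on the other controls, and the B cell median was 4.82 on resistant array 3 against 3.45 to 3.60 on the other resistant arrays. The platelet and hepatocyte medians were 4.41 and 3.26 on control array 3, against 3.81 to 3.95 and 2.45 to 2.67. The pericyte and smooth muscle median was 3.46 on resistant array 4 against 3.89 to 3.91, and the integrin median was 4.89 on control array 2 against 5.72 to 5.96.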

How the results depend on the processing

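With limma and a plain Student t-test alike, 0 genes passed the adjusted threshold under the main setting and all 27 alternatives. That t-test left out the random variance model of the methods, and the methods' filters on intensity and variation were not applied. Of the 92 genes checked, 80 kept their direction throughout, and the lowest adjusted p of the 92 was 0.0653, with array quality weights. Of the 42 list medians, 9 kept their sign in all alternatives, among them large peritoneal macrophage (0.28 to 0.79), neutrophil (-0.74 to -0.23), complex I (-0.50 to -0.22) and immediate early (0.14 to 0.99). The cause of a change was not tested. Genes at an unadjusted p under 0.05 numbered 469 higher and 542 lower in the main fit, 283 higher after a median shift, 148 and 235 when all 13 arrays shared the spread, 1194 and 1096 with array quality weights, and 232 lower with the 3' to 5' covariate. Leaving out single arrays gave 313 to 775 higher and 357 to 794 lower, the highest without resistant array 1 and the lowest without control array 5 (higher) and resistant array 4 (lower). The check for pairing gave correlations of 0.44, -0.16, -0.23 and -0.23 between same-numbered arrays. The highest correlation with another number was 0.17, 0.18, 0.10 and 0.44 in the same order. No label says whether the numbers pair the samples, and these few correlations cannot settle it. The replicate block gave 265 higher and 377 lower genes.

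The replicate block turned Kdr to 0.46. The largest-variance probe set turned Chd4 to -0.073 and Cd36 to 0.29. Deposited values turned Arnt to -0.032, and a median shift turned Arnt to -0.061 and Akt1 to -0.015. Epas1 turned to -0.60 with array weights and -0.23 with the 3' to 5' covariate, which turned Timd4 to 0.25. Without control arrays 4 and 5, Pecam1 turned to 0.61, Cdh5 to 0.77, Kdr to 1.48, Cd36 to 0.086, Pparg to 0.040, Hif1a to 0.20, Arnt to -0.10, Akt1 to -0.082 and Timd4 to 0.13. Without resistant arrays 2 and 3, Msln turned to -0.11, Cd36 to 0.021, Arnt to -0.090 and Timd4 to 0.19. With single arrays left out, differences ran from -0.82 to 0.46 for Kdr, from -0.87 to 0.22 for Cd36, from -0.37 to 0.012 for Hif1a, from -0.15 to 0.73 for Epas1, from -0.096 to 0.22 for Arnt, from -0.70 to 0.024 for Timd4 and from -0.13 to 0.49 for Akt1.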

Other observations

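Other parts of the energy and protein turnover machinery were read after the complex I values had been seen, from symbol patterns, so these counts are descriptions. Of 17 ATP synthase genes 16 were negative with a median of -0.43, and 6 were lower and 0 higher at an unadjusted p under 0.05, where all genes gave 3.62% lower and 3.13% higher. Complex III had 5 of 8 negative with 3 lower, and complex IV 9 of 15 negative with 1 lower. The proteasome had 32 of 40 negative with a median of -0.28, with 10 lower and 1 higher. The mitochondrial ribosome had 52 of 73 negative with a median of -0.13, with 8 lower and 1 higher. The cytosolic ribosome, in contrast, had 25 of 46 positive with a median of 0.03 and 4 genes in each direction. Of 17 Sm and LSm proteins of splicing and RNA decay, 12 were negative and 4 were lower. The 3' to 5' difference moved with the group on resistant arrays 2 to 4, and its part in these counts was not tested.

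Of 5860 tested probe sets that named no gene or several, 1 passed the adjusted threshold. The adjustment was made over these probe sets alone, apart from the genes above. The probe set that passed is given as a count only, without its direction or values. At an unadjusted p under 0.05, 146 of the 5860 were higher and 228 lower.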
